A study of Mus musculus with 2 samples.

Results

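The transcription factors of lung epithelium *Nkx2-1*, *Foxa1*, *Foxa2*, *Sox2*, *Sox9*, *Gata6*, *Etv5*, *Cebpa* and *Elf3* were followed cell by cell in the newborn mouse lung. The genes were chosen by name, and 9 of 9 had a row in both tables, out of 27254 genes listed in either table. The libraries were Drop-seq, a droplet method that tags the 3′ end of each transcript with a cell barcode and a unique molecular identifier (UMI), made from whole lung of wild-type (wt) C57BL/6J mice at postnatal day 1, with no treatment and with red blood cells lysed before capture. Batch 1 and Batch 2 were 1 mouse each, so that every comparison rests on n = 2 mice, the animal and the batch cannot be told apart, and no other age or condition was measured. After removal of cells in which over 10% of UMIs were mitochondrial (1 of 2389 barcodes in Batch 1 and 1940 of 7555, or 25.7%, in Batch 2), 2388 and 5615 cells remained.

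Lung epithelium arises from foregut endoderm that expresses *Nkx2-1*, and the early tube is patterned along its length, with *Sox2* in the proximal cells that make the conducting airways and *Sox9* in the distal tips that make the alveoli. Alveolar type 1 (AT1) cells are the thin cells of gas exchange and alveolar type 2 (AT2) cells make and store surfactant, while club and ciliated cells line the airways. NKX2-1 acts on surfactant genes together with FOXA1, FOXA2, GATA6 and C/EBPα, and ETV5 is a target and effector of fibroblast growth factor signaling in distal epithelium.

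On GRCm38, the members lie on separate loci: *Nkx2-1* on chromosome 12 from 56531958 to 56536908 and *Foxa1* on the same chromosome from 57540628 to 57546916, *Foxa2* on chromosome 2 from 148042877 to 148046969, *Sox2* on chromosome 3 from 34650405 to 34652461, *Sox9* on chromosome 11 from 112782224 to 112787760, *Etv5* on chromosome 16 from 22381309 to 22439719, *Cebpa* on chromosome 7 from 35119293 to 35121928 and *Elf3* on chromosome 1 from 135253575 to 135258568. To show sequence near the members' own starts, RefSeq windows around annotated starts were searched on both strands for the core letters of the families the members belong to. No window was at hand for *Sox9* or *Gata6*, so neither was searched. Of 10 windows of the other 7 members, 2 held the forkhead letters TGTTTAC, which 3.66% of 32544 distinct windows of the same length held. The windows were those of *Foxa1*, which is itself a forkhead gene, and *Etv5*. Their stretches up to the start are printed below, with the match in capitals on the printed strand (GTAAACA is TGTTTAC read from the other strand). The *Foxa1* stretch is chr12:57546122-57546361 on the minus strand and the *Etv5* stretch is chr16:22439720-22439820 on the minus strand, both of GRCm38.p6. The *Etv5* stretch lies directly before the annotated gene. The *Foxa1* stretch lies inside the annotated gene span, directly before the start of the transcript that holds the coding exons and within an intron of a second transcript, without annotated coding sequence, that starts farther out at 57546916.
Foxa1: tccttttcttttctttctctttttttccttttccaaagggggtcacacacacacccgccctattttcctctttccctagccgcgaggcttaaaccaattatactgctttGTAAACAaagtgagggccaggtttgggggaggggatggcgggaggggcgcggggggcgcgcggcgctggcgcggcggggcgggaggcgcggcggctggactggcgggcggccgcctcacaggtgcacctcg
Etv5: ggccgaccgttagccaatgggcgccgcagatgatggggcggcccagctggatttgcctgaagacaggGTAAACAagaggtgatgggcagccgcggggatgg
The match lay 124 bases before the first start of *Foxa1* in the window and 27 bases before that of *Etv5*. The GATA letters AGATAA were in 1 member window, that of *Foxa2*, and in 11.2% of all windows. The ETS letters CCGGAAG (8.91% of all windows), the SOX letters ACAATG (12.4%) and the NKX2 letters CACTTGA (2.98%) were in 0 of the 10. These matches are letters in a window, and no binding was measured.

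Cells were clustered on 2000 highly variable genes, and the clusters were named from fixed marker genes. The members, other listed transcription factors and mitochondrial genes were left out of the clustering, and no member was a marker. No member thus entered the clustering or the marker lists. The thresholds that named the clusters were set after the values were seen, so the classes are not wholly independent of the members. Alveolar cells numbered 319 in Batch 1 and 1351 in Batch 2, airway cells 13 and 122, and non-epithelial cells 1955 and 4022, while 101 and 120 cells stayed unassigned. Alveolar cells were parted further into 75 and 303 AT1-like cells, 191 and 674 AT2-like cells, and 53 and 374 cells of a mixed cluster with both marker sets. Of the Batch 1 cells whose class the authors list, 269 of 272 alveolar, 12 of 12 airway and 1583 of 1647 non-epithelial cells fell in the same class. The AT1 and AT2 marker lists were each detected in full in alveolar cells, and the secretory and ciliated lists in airway cells, with none of these genes at 0. The clusters were named from these lists, so this is no check of the classes. Full detection was also not particular to them. In non-epithelial cells of both mice no AT1, AT2 or secretory marker was at 0, and 1 and 0 of the ciliated markers were. Of the 4 neuroendocrine markers, 4 were at 0 in airway cells of Batch 1 and 3 in Batch 2. The airway class was named from secretory and ciliated markers. No further airway cell type had a marker list, so whether others share in the airway values was not tested.

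Depth differed between the classes. The median was 2131 and 3492 UMIs per alveolar cell, 3431 and 6020.5 per airway cell, and 1289 and 1742.5 per non-epithelial cell, and detection is therefore given at an equal depth of 1000 UMIs per cell. In Batch 2, 47 of 122 airway cells had over 10000 UMIs and held 85.0% of all airway UMIs, and the deepest had 114913. Whether such barcodes hold single cells was not tested. Airway values are for this reason also given without such cells, which leaves 12 and 75. Markers of another lineage were present, as at least 2 genes, in 94 and 183 alveolar cells and in 2 and 37 airway cells. Only epithelial cells were screened in this way. Tests without such cells therefore kept all non-epithelial cells, and mixed barcodes among those were not looked for. In the summed alveolar cells the endothelial list stood at 5.06 and 1.23 UMIs per 10000, against 41.8 and 65.5 in non-epithelial cells, and the AT2 list stood at 19.7 and 34.1 in airway cells, against 1109 and 753 in alveolar cells. Haemoglobin and the other erythroid genes summed to 533 UMIs per 10000 in alveolar cells of Batch 1 and 49.7 in Batch 2.

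*Nkx2-1*, the homeodomain factor that specifies lung epithelium, was found in both epithelial compartments and was highest in alveolar cells of both mice. Its level was 3.67 UMIs per 10000 in alveolar cells of Batch 1 (315 UMIs, exact Poisson 95% interval 3.28 to 4.10) and 3.85 in Batch 2 (2513 UMIs, 3.70 to 4.01). In airway cells it was 1.53 (8 UMIs, 0.660 to 3.01) and 2.44 (407 UMIs, 2.21 to 2.69). In non-epithelial cells it was 0.0475 (15 UMIs) and 0.0969 (92 UMIs). Both mice thus had the order alveolar, airway, non-epithelial, with alveolar and airway intervals that did not overlap within either mouse. All intervals cover counting error only, and since Drop-seq counts 3′ ends without a length correction, levels are compared between classes for one gene and not between genes.

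*Foxa1* and *Foxa2*, forkhead factors that open chromatin at endodermal genes and partly stand in for each other, were counted in alveolar and in airway cells. *Foxa2* had 1.18 UMIs per 10000 in alveolar cells of Batch 1 (101 UMIs) and 0.889 in Batch 2 (580 UMIs), and 1.34 (7 UMIs) and 1.04 (174 UMIs) in airway cells. *Foxa1* had 0.268 (23 UMIs) and 0.224 (146 UMIs) in alveolar cells and 0.764 (4 UMIs) and 0.509 (85 UMIs) in airway cells. In each mouse the airway value of either gene was above the alveolar one, and only for *Foxa1* in Batch 2 did the intervals separate (0.407 to 0.630 in airway, 0.189 to 0.263 in alveolar cells). Non-epithelial cells held 0.0190 and 0.0274 for *Foxa2* and 0.0127 and 0.0105 for *Foxa1*.

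*Sox2*, the factor of proximal identity, was counted mainly in airway cells. It had 1.34 UMIs per 10000 in airway cells of Batch 1 (7 UMIs, 0.538 to 2.76) and 0.773 in Batch 2 (129 UMIs, 0.645 to 0.918). In alveolar cells 3 UMIs were counted in 319 cells of Batch 1 and 2 UMIs in 1351 cells of Batch 2, or 0.0350 and 0.00307 per 10000. In non-epithelial cells there were 2 UMIs in each mouse. AT1-like cells had 0 UMIs in both mice, which allows at most 0.198 and 0.0440 per 10000. Such limits for a count of 0 are one-sided, at 3 UMIs over the class total. They lie below the upper ends of the exact Poisson intervals, here 0.244 and 0.0540. Within the airway class of Batch 2, *Sox2* stood at 0.802 (0.661 to 0.963) in the 89 cells with ciliary genes and 0.606 (0.339 to 1.00) in the 33 cells without them, intervals that overlap. Both groups carried 6 of 6 secretory markers, so they do not part ciliated from secretory cells. In Batch 1, 7 of 7 *Sox2* UMIs were in the 9 cells with ciliary genes, and the other 4 airway cells had too few UMIs to show it (interval 0 to 3.68).

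*Sox9*, which marks distal tip progenitors before birth, was still counted in alveolar cells at postnatal day 1. The level was 0.373 UMIs per 10000 in Batch 1 (32 UMIs, 0.255 to 0.527) and 0.451 in Batch 2 (294 UMIs, 0.401 to 0.505). In airway cells the mice differed: 5 UMIs, 4 of them in 1 cell, gave 0.955 in Batch 1 (0.310 to 2.23), and 29 UMIs gave 0.174 in Batch 2 (0.116 to 0.250). Airway cells were thus above alveolar cells in one mouse and below them in the other, and the 13 cells of Batch 1 do not settle the order. Non-epithelial cells had 0.0665 and 0.0421.

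*Gata6*, a zinc finger factor of endoderm and mesoderm, had 1.05 UMIs per 10000 in alveolar cells of Batch 1 (90 UMIs, 0.844 to 1.29) and 1.39 in Batch 2 (908 UMIs, 1.30 to 1.49). Airway cells had 0.955 (5 UMIs) and 0.659 (110 UMIs, 0.542 to 0.794). Non-epithelial cells had 0.351 (111 UMIs) and 0.367 (348 UMIs). *Gata6* was thus counted outside the epithelium in both mice, at levels well above 0.

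*Etv5*, an ETS factor downstream of fibroblast growth factor signaling, had alveolar intervals that did not overlap between the mice, as was also the case for *Gata6*. It had 2.75 UMIs per 10000 in Batch 1 (236 UMIs, 2.41 to 3.13) and 1.64 in Batch 2 (1068 UMIs, 1.54 to 1.74), and no test of this gap is possible with 1 mouse per batch. Airway cells had 0 UMIs in Batch 1, which allows at most 0.573 per 10000, and 10 UMIs in Batch 2, or 0.0599. Non-epithelial cells had 0.0886 and 0.0664. The airway interval of Batch 2 (0.0287 to 0.110) held the non-epithelial level.

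*Cebpa*, which encodes C/EBPα, a factor of AT2 maturation and of myeloid cells, had 2.05 UMIs per 10000 in alveolar cells of Batch 1 (176 UMIs, 1.76 to 2.38) and 1.82 in Batch 2 (1184 UMIs, 1.71 to 1.92). In airway cells it had 0 UMIs in Batch 1 and 63 in Batch 2, or 0.377 per 10000 (0.290 to 0.483). Of those 63 UMIs, 2 remained when cells over 10000 UMIs were left out, and the level was then 0.0796. Non-epithelial cells had 0.0823 and 0.128. The airway level of *Cebpa* in Batch 2 thus came almost wholly from the deepest cells. The AT2 marker list is given above for airway cells, and its part in this value was not tested.

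*Elf3*, an epithelial ETS factor, had 0.245 UMIs per 10000 in alveolar cells of Batch 1 (21 UMIs) and 0.230 in Batch 2 (150 UMIs). In airway cells it had 0 UMIs in Batch 1 and 62 in Batch 2, or 0.371 (0.285 to 0.476), and 0.398 without cells over 10000 UMIs. The Batch 1 limit of 0.573 lies above both of those values, so a difference between the mice was not detectable at this depth. Non-epithelial cells had 0.00633 and 0.00632.

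**Figure D1:**
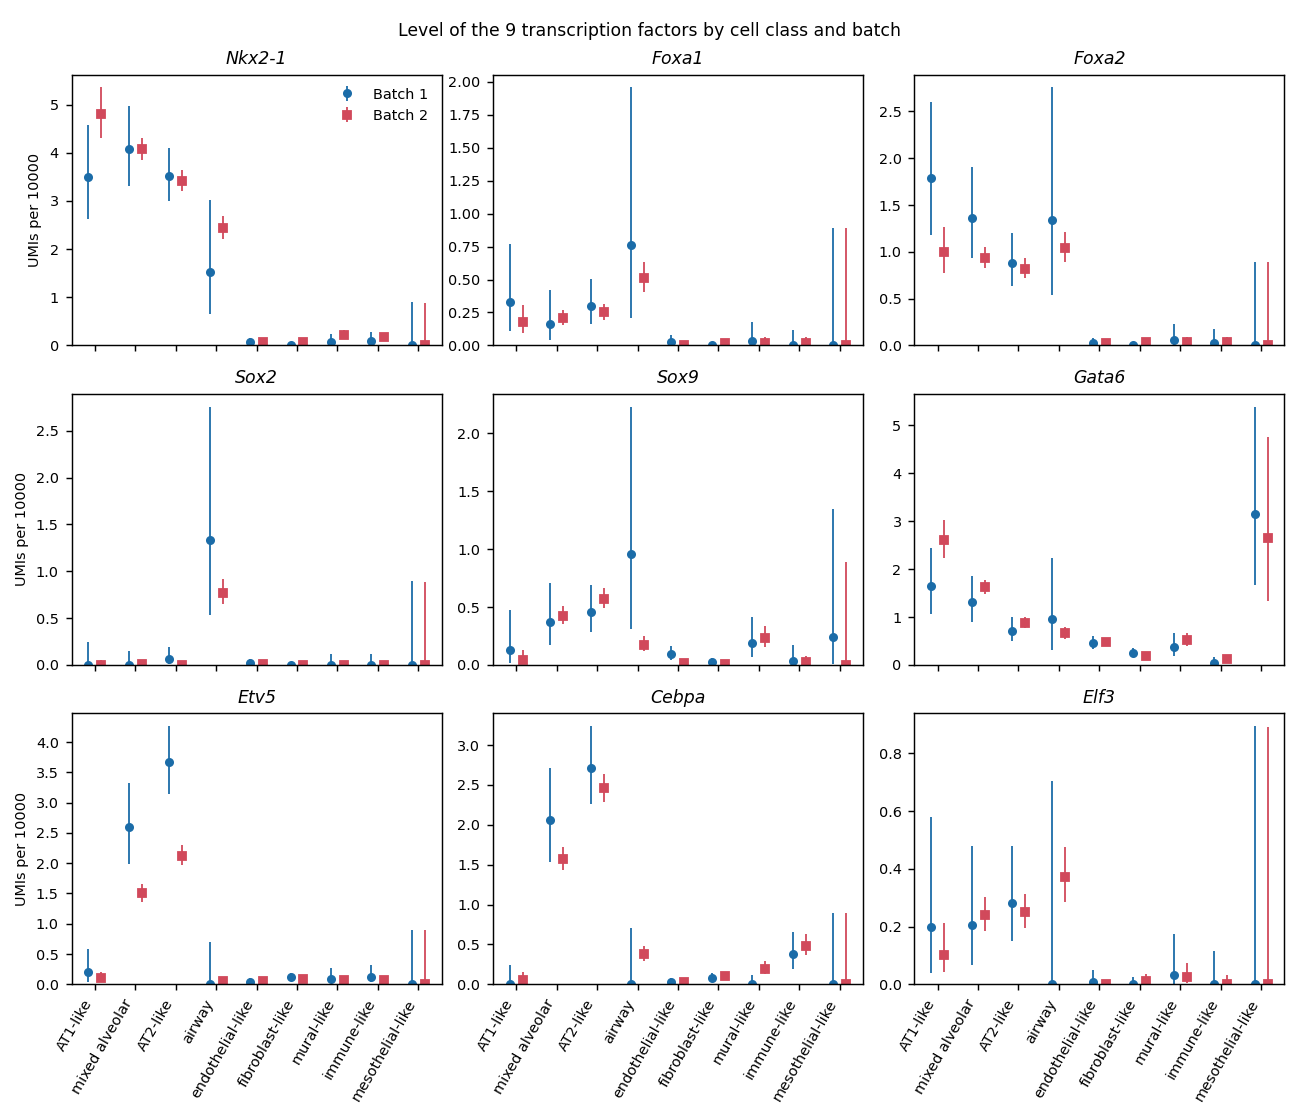
UMIs of each of the 9 members per 10000 UMIs in the summed cells of each finer class, on linear axes from 0 with a range of its own for each gene, one point per batch (1 mouse each) with its exact Poisson 95% interval. *Cebpa* is at 2.72 and 2.46 in AT2-like cells and near 0 in AT1-like cells, *Sox2* is highest in airway cells, and *Gata6* is at 3.15 and 2.65 in mesothelial-like cells.

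Against non-epithelial cells, 8 of 9 members were higher in alveolar cells and 0 were lower. Of all 12834 genes tested, 14.6% were higher and 20.9% lower, and this background includes the genes from which the classes were formed. The test was edgeR's quasi-likelihood test on UMIs summed per class and mouse, with the mouse as a block and Benjamini-Hochberg adjustment over all genes. The log2 fold change was 5.97 for *Nkx2-1* (standard error 0.42, adjusted p = 1.06e-42), 5.57 for *Foxa2* (0.41, 8.05e-40) and 5.02 for *Etv5* (0.37, 2.63e-38). It was 5.41 for *Elf3* (0.58, 3.98e-19), 4.61 for *Foxa1* (0.51, 2.24e-18) and 4.43 for *Cebpa* (0.36, 7.69e-32). The smaller changes were those of *Sox9*, at 3.31 (0.39, 9.25e-16), and *Gata6*, at 2.02 (0.32, 4.93e-09). *Sox2* did not pass, at 1.49 (1.08, 0.311). The median was 4.61 over the 9 members and -0.15 over all genes tested. Within each mouse, the difference on the log2(UMIs per 10000 + 0.1) scale, which understates low genes, was 4.68 and 4.33 for *Nkx2-1*, 3.92 and 3.38 for *Etv5*, and 1.35 and 1.68 for *Gata6*, in the order Batch 1, Batch 2.

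Genes made by epithelial cells gave some UMIs in non-epithelial cells too. The non-epithelial level of *Sftpc*, which AT2 cells make, was 1.03% of its alveolar level in Batch 1 and 2.28% in Batch 2. For *Ager*, an AT1 gene, the shares were 1.80% and 2.83%, and for *Hopx*, another AT1 gene, they were 9.97% and 12.1%, so that the share differed widely between marker genes. *Nkx2-1* (1.29% and 2.51%), *Foxa2* (1.61% and 3.08%) and *Elf3* (2.59% and 2.75%, on 2 and 6 non-epithelial UMIs) lay close to *Sftpc* and *Ager*, and their non-epithelial UMIs are not read here as expression. What brought these UMIs there was not tested. *Gata6* (33.5% and 26.3%) lay above these 3 marker genes in both mice. *Sox9* (17.8% and 9.35%) lay above them in Batch 1 and below *Hopx* in Batch 2. *Cebpa* (4.01% and 7.08%), *Etv5* (3.22% and 4.05%) and *Foxa1* (4.72% and 4.70%, on 4 and 10 UMIs) lay above *Sftpc* and *Ager* and below *Hopx*.

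Split by non-epithelial class, *Gata6* was highest in the mesothelial-like cells, the lining of the lung surface, at 3.15 UMIs per 10000 in Batch 1 (13 UMIs in 21 cells, 1.68 to 5.39) and 2.65 in Batch 2 (11 UMIs in 11 cells, 1.33 to 4.75). The first interval lay above that of alveolar cells and the second overlapped it, and the other 8 members together had 1 UMI there. In endothelial-like cells *Gata6* stood at 0.454 and 0.472, in mural-like cells (myofibroblasts, smooth muscle and pericytes) at 0.378 and 0.519, in fibroblast-like cells at 0.254 and 0.181 and in immune-like cells at 0.0313 and 0.117. *Cebpa* was highest in immune-like cells, at 0.375 (12 UMIs) and 0.484 (58 UMIs). *Sox9* was highest in mural-like cells among the 4 larger classes, at 0.189 (6 UMIs) and 0.230 (27 UMIs).

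Tested against each non-epithelial class in turn, as the mean log2 level of the 3 alveolar clusters, 8 of 9 members were higher in alveolar than in endothelial-like cells (16.1% of all 12761 genes were) and 8 of 9 than in fibroblast-like cells (15.6%). Against mural-like cells 7 of 9 were higher (14.4%), and *Sox9* was not, with a log2 fold change of 0.55 (standard error 0.48, edgeR adjusted p = 0.419). Against immune-like cells 7 of 9 were higher (15.9%), and *Cebpa* was not, with 0.49 (0.45, 0.436). This test weighs the AT1-like cells, with 0 and 4 *Cebpa* UMIs, like the other 2 clusters. Over the summed alveolar cells *Cebpa* stood at 2.05 and 1.82 UMIs per 10000, against 0.375 (0.194 to 0.656) and 0.484 (0.368 to 0.626) in immune-like cells, and the intervals did not overlap in either mouse. No member was lower, where 20.5%, 18.8%, 16.7% and 18.8% of all genes were, in the order endothelial-like, fibroblast-like, mural-like and immune-like. *Gata6* was higher than in endothelial-like cells by 1.78 (0.26, 5.53e-07), than in mural-like cells by 1.99 (0.30, 9.87e-07), than in fibroblast-like cells by 2.81 (0.29, 3.27e-10) and than in immune-like cells by 3.94 (0.39, 9.63e-11). *Sox2* passed in no class and had 0 UMIs in fibroblast-like, mural-like and immune-like cells of both mice, so no fold is given. *Cebpa* was no longer called against endothelial-like, fibroblast-like or mural-like cells (edgeR adjusted p of 1.00, 0.988 and 0.973) when cells with over 5% mitochondrial UMIs were left out, a setting in which the AT1-like cells, 1 of the 3 clusters averaged, had 0 *Cebpa* UMIs.

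**Figure D2:**
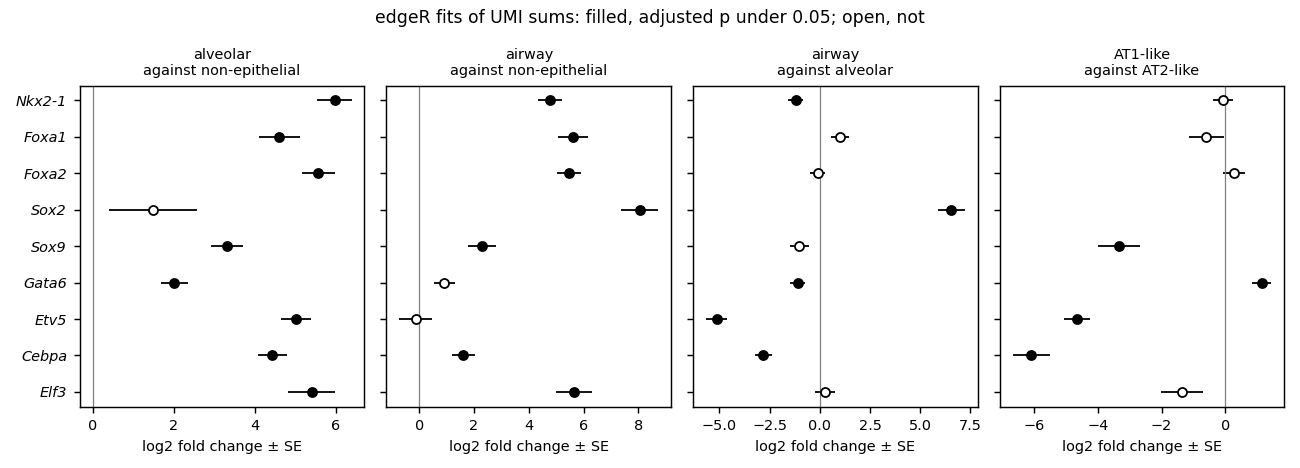
Log2 fold changes of the 9 members (edgeR, points) with their standard errors (bars) in the comparisons between classes, filled where the adjusted p was under 0.05 and open where it was not. *Sox2* is not drawn for AT1-like against AT2-like cells. Against non-epithelial cells 8 members are higher in alveolar cells, and between the epithelial classes *Sox2* is far to the airway side while *Etv5* and *Cebpa* are far to the alveolar side.

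Between airway and alveolar cells, 1 member was higher in airway cells, where 11.9% of all genes tested were, and 4 were lower, where 8.38% were. *Sox2* was higher by a log2 fold change of 6.55 (standard error 0.66, edgeR adjusted p = 4.68e-21). *Etv5* was lower, at -5.14 (0.53, 1.37e-20), as was *Cebpa*, at -2.82 (0.42, 7.15e-10). *Nkx2-1* was lower by less, at -1.21 (0.38, 0.00976), and *Gata6* at -1.10 (0.39, 0.0246). *Foxa1* (1.00, adjusted p = 0.104), *Foxa2* (-0.11, 0.885), *Elf3* (0.25, 0.792) and *Sox9* (-1.02, 0.113) did not pass. The within-mouse differences on the log2(UMIs per 10000 + 0.1) scale were 3.41 and 3.08 for *Sox2*, -4.83 and -3.44 for *Etv5*, -4.43 and -2.004 for *Cebpa*, -1.21 and -0.64 for *Nkx2-1* and -0.12 and -0.98 for *Gata6*. Those of *Sox9* had opposite signs, at 1.16 and -1.01.

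Without the cells over 10000 UMIs, the 5 calls stood. *Sox2* was then at 1.21 UMIs per 10000 (5 UMIs) in airway cells of Batch 1 and 0.597 (15 UMIs) in Batch 2, with a log2 fold change of 5.49 (edgeR adjusted p = 1.64e-09) against alveolar cells. *Etv5* had 0 UMIs in airway cells of both mice, and *Cebpa* 0 and 2. *Nkx2-1* stood at 1.94 and 1.99, with a log2 fold change of -1.60 (adjusted p = 0.000513). For the smaller differences the call, and less the size, changed with the model. Without the mouse as a block, *Nkx2-1* was at -1.11 and did not pass (edgeR adjusted p = 0.214, the highest of its 8 alternatives, with 0.000513 the lowest). *Gata6* was then at -1.02 and did not pass either (0.205, where the lowest was 0.0245). *Gata6* also missed the threshold at -1.23 with DESeq2 (0.0633), at -0.86 with scaling by library size alone (0.0870) and at -1.01 with at most 5% mitochondrial UMIs (0.0675). *Foxa1* passed as higher in airway cells under scaling by library size alone (1.25, adjusted p = 0.0305).

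Against non-epithelial cells, 7 of 9 members were higher in airway cells, where 16.8% of all genes tested were, and 0 were lower, where 18% were. The log2 fold changes were 8.05 for *Sox2* (standard error 0.67, edgeR adjusted p = 6.10e-31), 5.65 for *Elf3* (0.64, 4.82e-17), 5.61 for *Foxa1* (0.56, 3.21e-22), 5.46 for *Foxa2* (0.44, 9.90e-33) and 4.76 for *Nkx2-1* (0.43, 1.27e-26). *Elf3* rested on Batch 2, since it had 0 airway UMIs in Batch 1. *Sox9* was higher by 2.29 (0.52, 6.07e-05) and lost its call without cells over 10000 UMIs (2.03, adjusted p = 0.0519). *Cebpa* was higher by 1.61 (0.43, 0.000789), and without those cells its direction turned, to -1.07 (adjusted p = 0.441). The *Cebpa* call was also lost with DESeq2 (1.27, adjusted p = 0.207) and without cells carrying markers of another lineage (0.79, edgeR adjusted p = 0.350). *Gata6* (0.91, adjusted p = 0.0550) and *Etv5* (-0.12, 0.903) did not pass.

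Inside the alveolar class the members parted into those shared by both cell types and those of 1 type. *Cebpa* had 2.72 UMIs per 10000 in AT2-like cells of Batch 1 (126 UMIs) and 2.46 in Batch 2 (726 UMIs), against 0 UMIs in AT1-like cells of Batch 1 (at most 0.198) and 4 UMIs in Batch 2, or 0.0586. *Etv5* had 3.67 (170 UMIs) and 2.12 (628 UMIs) in AT2-like cells and 0.198 (3 UMIs) and 0.103 (7 UMIs) in AT1-like cells. *Sox9* had 0.453 (21 UMIs) and 0.572 (169 UMIs) in AT2-like cells and 0.132 (2 UMIs) and 0.0440 (3 UMIs) in AT1-like cells. In Batch 2 the AT1-like intervals of *Cebpa* (0.0160 to 0.1501) and *Etv5* (0.0412 to 0.211) held the non-epithelial levels.

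*Gata6* went the other way, with 1.65 UMIs per 10000 in AT1-like cells of Batch 1 (25 UMIs, 1.07 to 2.44) and 2.61 in Batch 2 (178 UMIs, 2.24 to 3.02), against 0.712 (0.490 to 0.999) and 0.883 (0.779 to 0.997) in AT2-like cells. Of the AT1-like cells of Batch 1, 32 of 75 carried markers of another lineage, and without such cells 8 *Gata6* UMIs remained there, or 1.22 per 10000 (0.526 to 2.40), an interval that overlapped that of AT2-like cells (0.697, 0.446 to 1.04). The call of *Gata6* in AT1-like against AT2-like cells stood without them (1.03, edgeR adjusted p = 0.0337). *Nkx2-1* had 3.50 and 4.81 in AT1-like and 3.51 and 3.42 in AT2-like cells, higher in AT1-like cells of Batch 2 (intervals 4.30 to 5.35 and 3.21 to 3.63) and level in Batch 1. *Foxa2* had 1.78 and 0.996 in AT1-like against 0.884 and 0.819 in AT2-like cells, with intervals that overlapped in both mice. *Foxa1* stood at 0.330 and 0.176 against 0.302 and 0.250, and *Elf3* at 0.198 and 0.103 against 0.280 and 0.250.

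In the test of AT1-like against AT2-like cells, 1 member was higher in AT1-like cells, where 4.91% of all 12761 genes were, and 3 were lower, where 5.41% were. The log2 fold change was 1.15 for *Gata6* (standard error 0.31, edgeR adjusted p = 0.00997), -6.09 for *Cebpa* (0.59, 5.82e-10), -4.65 for *Etv5* (0.41, 8.09e-11) and -3.33 for *Sox9* (0.66, 0.000346). Within the mice, on the log2(UMIs per 10000 + 0.1) scale, the differences were 1.11 and 1.46 for *Gata6*, -4.82 and -4.01 for *Cebpa*, -3.66 and -3.46 for *Etv5* and -1.25 and -2.22 for *Sox9*. *Elf3* (-1.36, adjusted p = 0.239), *Foxa1* (-0.60, 0.615), *Foxa2* (0.27, 0.743) and *Nkx2-1* (-0.08, 0.937) did not pass. Nor did *Sox2*, at -3.84 (standard error 3.44, edgeR adjusted p = 0.597), on 3 UMIs in AT2-like cells of Batch 1. *Gata6* was not called without the mouse as a block, at 1.14 (adjusted p = 0.203).

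The mixed alveolar cells, which carried both AT1 and AT2 markers and had a median of 4029 and 5697.5 UMIs per cell, lay between the other clusters for the genes that parted them. *Cebpa* stood there at 2.06 and 1.57 UMIs per 10000, *Etv5* at 2.60 and 1.50, *Gata6* at 1.32 and 1.63 and *Sox9* at 0.371 and 0.423. In both mice each of these lay between the AT1-like and the AT2-like level. *Nkx2-1*, at 4.08 and 4.07, was above the AT2-like level in both mice and on opposite sides of the AT1-like level in the 2 mice. Of these cells, 21 and 63 carried at least 2 markers of another lineage, and whether the class holds doublets of AT1 and AT2 cells was not tested.

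At an equal depth of 1000 UMIs per cell, *Nkx2-1* was expected in 30.1% of alveolar cells of Batch 1 (Wilson 95% interval 25.2 to 35.5%) and 30.6% of Batch 2 (28.1 to 33.1%), in 19.0% and 18.9% of airway cells, and in 0.194% and 0.970% of non-epithelial cells. Without thinning the alveolar shares were 54.2% and 67.4%, and the gap between the mice was thus gone at equal depth. *Etv5* kept its gap, with 21.5% (17.2 to 26.5%) and 12.4% (10.7 to 14.3%) of alveolar cells, although the unthinned shares were 40.4% and 37.8%. *Cebpa* was at 19.1% and 13.9% (unthinned 34.8% and 39.6%), *Gata6* at 8.71% and 11.5% (21.6% and 34.9%) and *Foxa2* at 9.57% and 7.64% (22.3% and 27.0%). *Sox9*, *Foxa1* and *Elf3* were found in 2.01 to 3.28% of alveolar cells at this depth. *Sox2* was at 0.676% and 0.0260% of alveolar and 11.7% and 6.53% of airway cells.

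The same order held by class as with summed levels. All 9 members were found in a larger share of alveolar than of non-epithelial cells in both mice, *Sox2* on 3 and 2 UMIs only, and 6 in a larger share of airway than of non-epithelial cells. The 3 members found in more airway than alveolar cells in both mice were *Sox2*, *Foxa1* (4.86% and 5.39% against 3.28% and 2.17%) and *Foxa2* (10.6% and 8.78% against 9.57% and 7.64%), and the airway and alveolar intervals of *Foxa1* and *Foxa2* overlapped in both mice. Among AT1-like cells *Gata6* was found in 10.7% and 19.95%, against 7.28% and 6.94% of AT2-like cells. *Etv5* was found in 1.72% and 0.682% of AT1-like and 29.0% and 16.8% of AT2-like cells, and *Cebpa* in 0% and 0.657% against 26.4% and 20.4%. The AT1-like share of *Etv5* in Batch 2 did not differ from that of non-epithelial cells, 0.627%, beyond counting error.

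**Figure D3:**
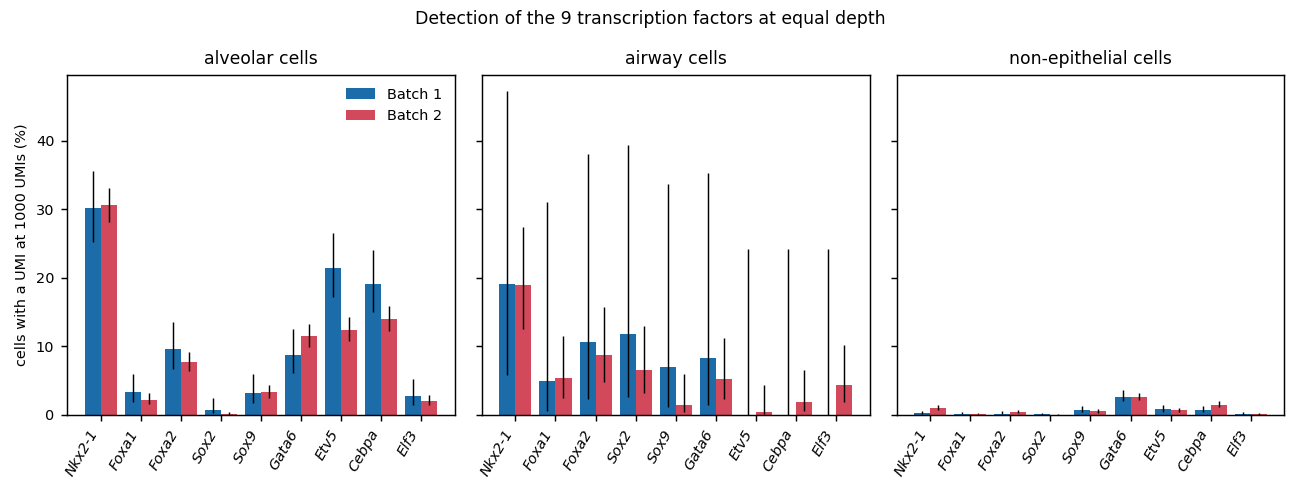
Share of cells with at least 1 UMI of each member, expected at 1000 UMIs per cell, by class and batch, with Wilson 95% intervals. *Nkx2-1* is found in 30.1% and 30.6% of alveolar cells, the non-epithelial shares are under 3%, and the airway intervals of Batch 1 are wide because they rest on 12 cells.

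Most alveolar cells had a UMI of at least 1 member. At 1000 UMIs the share with any of the 9 was 67.1% and 60.6% in alveolar, 47.1% and 42.4% in airway and 5.11% and 6.56% in non-epithelial cells, and without thinning it was 86.2% and 89.2% in alveolar cells. Of the alveolar clusters, AT2-like cells had 73.4% and 61.6% and AT1-like cells 51.1% and 57.5%. In mesothelial-like cells the share was 27.1% and 29.0%, and *Gata6* alone gave 24.2% and 29.0%.

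Co-detection was set against the product of the single shares. Of 36 pairs of members, 8 were found together in at least 1% of alveolar cells in both mice, and they were made of *Nkx2-1*, *Foxa2*, *Gata6*, *Etv5* and *Cebpa*. *Nkx2-1* and *Foxa2* were found together in 2.80% and 2.36% of alveolar cells, where the product of their shares was 2.88% and 2.34%. *Nkx2-1* and *Gata6* were found together in 2.36% and 3.48%, against 2.62% and 3.50%. *Nkx2-1* and *Etv5* (5.58% against 6.46%, and 3.84% against 3.78%) and *Nkx2-1* and *Cebpa* (6.29% against 5.75%, and 3.63% against 4.26%) lay to either side of the product in the 2 mice.

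*Etv5* and *Cebpa* were the 1 pair of the 8 above the product in both mice, with 4.94% against 4.10% in Batch 1 and 2.22% against 1.72% in Batch 2, or 14.7 and 29.0 expected cells. Within AT2-like cells, where both genes are found, the pair was at 6.86% against 7.63% and 3.34% against 3.43%, below the product in both mice. *Gata6* with *Cebpa* (1.48% against 1.66%, and 1.07% against 1.59%) and with *Etv5* (1.50% against 1.87%, and 1.09% against 1.42%) was below the product in both mice. In airway cells *Nkx2-1* and *Sox2* were found together in 1.59% and 1.75%, against 2.23% and 1.23%, and without thinning in 1 cell of Batch 1 and 39 cells of Batch 2. These departures rest on few expected cells and are given as a description.

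**Figure D4:**
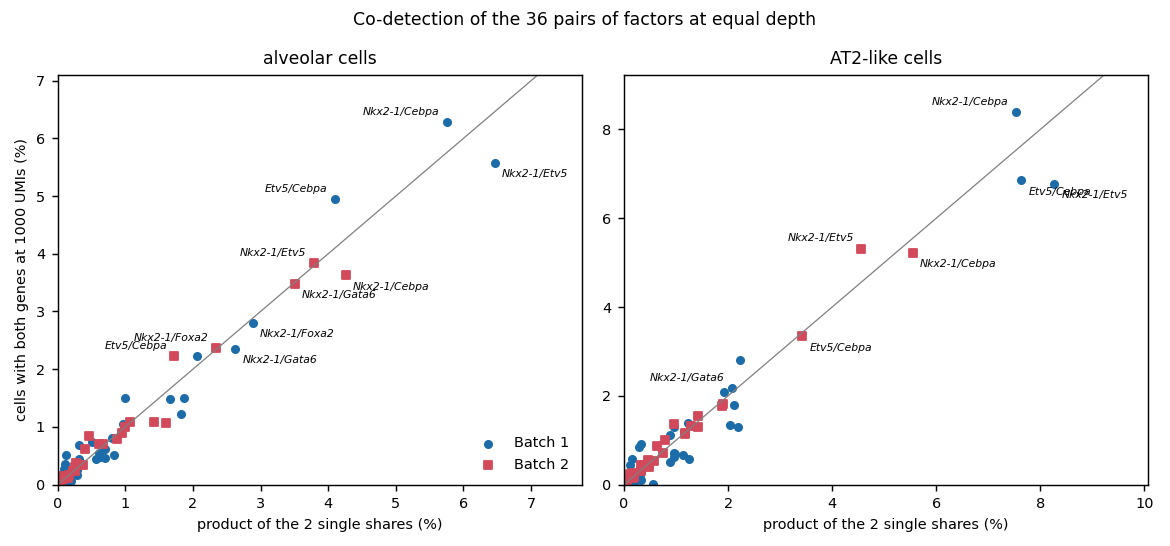
Share of cells with both members of a pair at 1000 UMIs per cell (vertical) against the product of the single shares (horizontal), in alveolar and in AT2-like cells, 1 point per pair and batch, with the line of equality. Among the pairs at 1% or more of alveolar cells in both mice, *Etv5* with *Cebpa* is the one above the line in both, and in AT2-like cells it is below it in both.

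Other transcription factors of lung epithelium, 48 listed by name, moved as follows. Of the 38 tested between the main classes, 18 were higher and 6 lower in alveolar than in non-epithelial cells, where 14.6% and 20.9% of all genes were, with a median log2 fold change of 0.94 against -0.15 for all genes. The Iroquois genes led, with *Irx1* at 6.17 (standard error 0.41, edgeR adjusted p = 6.12e-47), *Irx5* at 6.08, *Irx3* at 5.86 and *Irx2* at 5.60. Between airway and alveolar cells 6 were higher and 12 lower (11.9% and 8.38% of all genes), led by *Myb* at 8.40 (0.57, 3.90e-46) and *Trp73* at 5.82 (0.87, 5.88e-10), both known from multiciliated cells, *Rarb*, a retinoic acid receptor, at 5.67, and *Tfcp2l1* at -4.34 (0.50, 1.90e-16). Between airway and non-epithelial cells 17 were higher and 9 lower (16.8% and 18% of all genes), led by *Trp73* (6.35), *Myb* (6.22), *Ehf* (6.11), an epithelial ETS factor like *Elf3*, and *Irx5* (5.63).

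Of the 39 tested among the finer classes, 5 were higher and 12 lower in AT1-like than in AT2-like cells, where 4.91% and 5.41% of all genes were. The ETS factor *Elf5* (-4.76, standard error 0.64, edgeR adjusted p = 6.69e-07), *Tfcp2l1* (-4.66) and *Bhlhe40* (-4.37, 0.99, 0.00193) were lower in AT1-like cells, on the side of *Etv5* and *Cebpa*. *Tead1*, a partner of the Hippo effectors YAP and TAZ, was higher in AT1-like cells at 2.36 (0.31, 2.97e-07), on the side of *Gata6*. Against endothelial-like, fibroblast-like, mural-like and immune-like cells, 18, 22, 14 and 20 were higher in alveolar cells (16.1%, 15.6%, 14.4% and 15.9% of all genes) and 8, 4, 3 and 4 lower (20.5%, 18.8%, 16.7% and 18.8%). The 4 largest were *Irx1* (6.42), *Irx5* (6.03), *Irx2* (5.57) and *Grhl2* (5.39) against endothelial-like cells. Against fibroblast-like cells they were *Grhl2* (6.13), *Irx3* (6.13), *Irx2* (5.72) and *Irx1* (5.68). Against mural-like cells they were *Irx3* (6.40), *Irx5* (6.31), *Irx2* (5.30) and *Irx1* (5.09), and against immune-like cells *Myb* (-6.14), *Irx5* (6.01), *Klf5* (4.71) and *Irx1* (4.41).

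Across the 16 sums of the 8 finer classes and both mice, the genes whose pattern was most like each member's were named from 5245 genes by Pearson's r on the log2(UMIs per 10000 + 0.1) scale. Sums of 1 mouse share a library and classes are few, so these are descriptions. *Prss8* (r = 0.99) and *Gde1* (0.98) stood closest to *Nkx2-1*, *Crb3* (0.99) and *Rab25* (0.98) to *Foxa2*, and *Smim22* and *1810019D21Rik* (both 0.97) to *Foxa1*. *AU040972* and *Agr3* (both 0.99) stood closest to *Sox2*, *Rbpjl* (0.98) and *Hc* (0.97) to *Etv5*, and *Scd1*, a fatty acid desaturase, and *S100g*, an AT2 marker (both 0.92), to *Cebpa*. *Lama5*, a laminin chain, and *Pvrl2* (both 0.95) stood closest to *Gata6*, *Epn3* (0.92) and *Rac3* (0.91) to *Elf3*, and *Polr1c* (0.90) and *Tmem50b* (0.87) to *Sox9*.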

How the data were processed

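UMI count matrices of 2 newborn whole lungs (Batch 1 and Batch 2) were used as deposited. According to the study's methods and processing notes, the authors aligned reads to mm10 with Bowtie2 2.2.7, keeping 1 alignment per read, and used Drop-seq tools to reduce exon-tagged reads to distinct UMIs for every gene in every cell, giving unnormalized counts, in cells with at least 500 detected genes. Reads shared by near-identical stretches of *Foxa1* and *Foxa2*, and reads of genes that overlap a member (such as *Sox2ot*), may be split by such counting. Whether strand was used is not given in the sources used here.

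The members, lists and tests were chosen with earlier results of these data known, and the class thresholds after the values were seen. Cells with at most 10% mitochondrial UMIs were clustered (Leiden 0.10.2, 8 neighbours per batch, resolution 1), without the members and 48 other listed factors, and named from fixed markers. No doublet caller was run. 0 barcodes were shared between batches, and 0 per-sample columns were left unused.

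UMIs were summed per class and mouse and tested with edgeR 4.0.16 (R 4.3.3), TMM scaling and the mouse as a block, threshold 0.05. Classes of the same mouse are paired by the animal, and their deviations correlated at 0.13 to 0.38 over the 3 pairs of main classes and at 0.11 to 0.45 over the 28 of finer classes. DESeq2 1.42.0 was an alternative. Detection at 1000 UMIs was the exact hypergeometric expectation over cells of at least that depth. Named genes were the 9 members, per comparison the 4 called list genes with the largest absolute fold change, and per member the 2 genes most like it. The test was run on simulated counts drawn with 1 spread for all genes and no shift between mice. Its error rate in the real counts was not measured. Total depth was 4432553 and 18232639 UMIs (medians 1386.5 and 2014 per cell). The block removes shifts that a mouse has in all its classes. With n = 2 mice, p-values rest on how class differences vary between the mice. That spread is pooled over classes and shared across genes, in part in the fit of finer classes and almost wholly in that of the main classes. In the fit of the main classes, a gene's own disagreement between the mice therefore hardly enters its p-value.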

Additional observations from a re-analysis of the deposited data

How the results depend on the processing

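Of 54 member calls, 46 held in each of the 8 alternative tests run. The alternatives were DESeq2, scaling by library size alone, no gene filter, no replicate block, at most 5% mitochondrial UMIs and Leiden resolution 2. The others left out epithelial cells carrying markers of another lineage and, chosen after seeing the data, all cells over 10000 UMIs. Over all alternatives, called values kept their call and direction 419 times, lost the call 12 times and reversed 1 time. The reversal was *Cebpa* in airway against non-epithelial cells, at -1.07 without cells over 10000 UMIs, and its adjusted p over the alternatives ranged from 0.000219 to 0.441. For *Sox9* in that comparison it ranged from 7.21e-05 to 0.0519, and for *Gata6* in AT1-like against AT2-like cells from 0.00098 to 0.203.

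Among differences that were not called, airway against alveolar *Foxa2* turned to 0.17 (library size), 0.062 (5% mitochondrial UMIs) and 0.12 (no markers of another lineage), and *Elf3* to -0.23 (DESeq2) and -0.032 (no cells over 10000 UMIs). *Etv5* in airway against non-epithelial cells turned to 0.18 and *Cebpa* in alveolar against immune-like cells to -0.90 (both 5% mitochondrial UMIs), *Nkx2-1* in AT1-like against AT2-like cells to 0.26 (library size) and *Sox2* in alveolar against endothelial-like cells to 0.31 (DESeq2). Within Batch 1 alone, the airway minus non-epithelial difference was -0.87 for *Cebpa* (1.06 within Batch 2 alone) and -0.089 for *Elf3* (2.15), or -0.88 and -0.052 with only the cells the authors list, where airway cells had 0 UMIs of either.

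Without the replicate block, the airway against alveolar test called 2 members lower in place of 4, 904 genes higher in place of 1527 and 393 lower in place of 1075, the AT1-like against AT2-like test 0 members higher in place of 1, 249 genes higher in place of 626 and 280 lower in place of 691, and the alveolar against mural-like test 1167 genes higher in place of 1835. DESeq2 called 1558 genes lower in alveolar than in non-epithelial cells in place of 2680, and 949 higher and 600 lower in airway than in alveolar cells. Without cells over 10000 UMIs, 878 genes were higher in airway than in alveolar and 1253, in place of 2154, than in non-epithelial cells. Scaling by library size alone called 2 members higher in airway than in alveolar cells in place of 1 and moved the median of all genes from -0.15 to -0.39 in alveolar against non-epithelial cells (1570 higher and 3604 lower in place of 1871 and 2680), from -0.11 to 0.12 in airway against alveolar cells (1896 and 810) and from -0.10 to 0.17 in AT1-like against AT2-like cells (939 and 501), with 1746 and 3461 against endothelial-like and 1247 and 3626 against mural-like cells. The cause of these shifts was not tested.

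Members found in more airway than alveolar cells numbered 5 in place of 3 at 2 or more UMIs without thinning, and those in more AT1-like than AT2-like cells 1 in place of 3 without thinning. Pairs above the product in both mice numbered 2 at 2000 UMIs in place of 1, and 2 to 4 with 1 mouse alone. Airway values of Batch 1 rest on 13 cells, and a member at 0 UMIs there may stand at up to 0.573 UMIs per 10000.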

Other observations

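The unassigned cells, 101 in Batch 1 and 120 in Batch 2, belong to no comparison above. They were of 3 clusters: 50 and 37 cells with 6 of 6 erythroid markers, 24 and 75 cells led by histone genes, *Cenpf* and *Mki67*, and 27 and 8 cells with 9 of 9 AT1 and 6 of 11 endothelial markers. In their sum the erythroid list stood at 3001 and 2644 UMIs per 10000 and the AT1 list at 35.7 and 5.34. *Nkx2-1* stood there at 0.936 (34 UMIs) and 0.256 (14 UMIs) and *Gata6* at 0.578 (21 UMIs) and 0.439 (24 UMIs), while *Sox2* had 0 UMIs in both mice. The deepest airway cell of Batch 2 belonged to the cells with ciliary genes, and the cells of that group over 10000 UMIs held 89.1% of its UMIs, with as many as 9 of the 9 members in 1 cell without thinning. The longest run of 1 member in a single alveolar cell was 37 UMIs of *Nkx2-1*, in a mixed alveolar cell of Batch 2, where 27 of *Etv5* was the most in an AT2-like cell. Of genes that neighbour or overlap a member, *Sox2ot* had 0 UMIs in airway cells of both mice, where *Sox2* was highest, and 8 and 5 UMIs in non-epithelial cells. The airway cells held 52334 and 1669195 UMIs in all, against 3159191 and 9494858 in non-epithelial cells. At such low counts the airway 0 does not show a lower level.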
